A study of Mus musculus with 12 samples.

Results

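The 9 genes described here serve the presentation of peptides on MHC class I molecules and the response to interferon: B2m, H2-K1, H2-D1, Tap1, Tap2, Psmb8, Psmb9, Irf7 and Nlrc5. They were chosen by name, as the rows of the count table that carry these symbols, and make up 9 of its 55418 genes. The choice was made with earlier results of these data known, and the paper lists Nlrc5 among its differentially expressed genes. The tests of Nlrc5 below use the same mice and are not independent of that result. Each of the 9 genes was read in 12 P15 mice, of which 6 had received saline and 6 morphine. There were 3 females and 3 males under each treatment. The mice were of the outbred CFW strain, and no group carried a transgene or a deleted gene. Morphine mice received 15 mg/kg by injection 2 times a day from P1 to P14, saline mice received saline on the same schedule, and the tissue was taken 16 h after the last injection. Poly-A RNA of each brainstem was sequenced as 100 bp single-end reads, and the deposited values are the authors' raw counts per gene. The sample labels name brainstem, whereas the extraction protocol deposited with them speaks of spinal cords. Nlrc5 was the member called with morphine when the sexes were combined, and the other 8 members passed neither the sex-combined test nor that within a sex or of the interaction.

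MHC class I molecules are made of a polymorphic heavy chain and the invariant light chain β2-microglobulin, and they display peptides from the cell's own proteins at its surface to cytotoxic T cells. The peptides come from the proteasome, whose catalytic subunits are exchanged for immunoproteasome subunits under interferon, and are pumped into the endoplasmic reticulum by the TAP transporter. In the healthy brain class I levels are low compared with lymphoid tissue, with microglia, endothelium and some neurons as known sources, and class I chains have been given roles in synapse removal during development. NLRC5 is the transactivator of the class I genes, which it reaches through factors bound at the X and Y boxes of their promoters, and IRF7 is the transcription factor that amplifies type I interferon production.

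The promoters are shown because NLRC5 is known to act through the X and Y boxes, and Nlrc5 was the member that passed the test. RefSeq promoters on GRCm38.p6, running from 250 bases before to 50 after a start, were at hand for 7 members, and H2-K1 had 2 of them. Capitals mark the core of the X2 box (TGACG, or CGTCA on the other strand), the Y box (ATTGG or CCAAT), the core of the interferon-stimulated response element (GAANNGAAA, in capitals as its complement TTTCACTTC) and the kappa B site (GGGNNTTCC).
B2m (chr2:122147437-122147736, plus strand): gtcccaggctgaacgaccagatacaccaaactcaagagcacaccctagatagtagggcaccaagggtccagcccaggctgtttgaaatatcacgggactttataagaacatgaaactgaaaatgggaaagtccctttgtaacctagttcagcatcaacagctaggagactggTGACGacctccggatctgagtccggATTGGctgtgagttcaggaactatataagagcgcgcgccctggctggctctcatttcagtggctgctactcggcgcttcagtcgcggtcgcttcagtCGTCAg
H2-K1 (chr17:34000298-34000597, minus strand): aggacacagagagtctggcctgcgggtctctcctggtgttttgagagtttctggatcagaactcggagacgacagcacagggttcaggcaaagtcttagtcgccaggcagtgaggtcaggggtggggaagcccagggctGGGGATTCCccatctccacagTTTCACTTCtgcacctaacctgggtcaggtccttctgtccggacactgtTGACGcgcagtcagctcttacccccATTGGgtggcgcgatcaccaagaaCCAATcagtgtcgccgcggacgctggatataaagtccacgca
H2-D1 (chr17:35262844-35263143, plus strand): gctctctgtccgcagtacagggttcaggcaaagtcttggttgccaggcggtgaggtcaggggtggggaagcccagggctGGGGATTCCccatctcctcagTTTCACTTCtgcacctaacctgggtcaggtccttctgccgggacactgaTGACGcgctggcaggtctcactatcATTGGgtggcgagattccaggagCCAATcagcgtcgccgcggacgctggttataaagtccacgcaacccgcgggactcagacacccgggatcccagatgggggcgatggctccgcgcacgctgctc
Tap1 (chr17:34187306-34187605, plus strand): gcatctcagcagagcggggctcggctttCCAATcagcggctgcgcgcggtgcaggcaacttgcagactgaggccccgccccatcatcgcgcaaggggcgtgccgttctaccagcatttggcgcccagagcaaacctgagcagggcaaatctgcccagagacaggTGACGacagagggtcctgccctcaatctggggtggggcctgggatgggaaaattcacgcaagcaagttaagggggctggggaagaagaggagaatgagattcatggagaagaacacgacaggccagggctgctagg

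The B2m, H2-K1 and H2-D1 windows each held TGACG followed, after 20 further bases, by ATTGG, and Tap1, Psmb8, Psmb9 and Irf7 did not hold the pair at this spacing. Only 31 of 32851 RefSeq promoter windows of this length, 0.0944%, held that pair on either strand, against 20.8% with TGACG and 37.4% with ATTGG alone. The letters and the spacing were set after these sequences were seen, so the share describes the pattern and tests nothing. Counted from the start, it lay at bases -78 to -49 of B2m, -41 to -12 of H2-K1 and -101 to -72 of H2-D1. H2-K1 and H2-D1 also held the interferon-stimulated response element core, found in 7.52% of windows, and the kappa B site, found in 5.82%, in the same order upstream of the X2 core. The B2m window held the similar gaaactgaaa, which the letters searched for do not match. The search thus does not show that B2m lacks such an element. Psmb8 held the letters of a gamma-activated site (TTCNNNGAA, on both strands since they are their own complement), found in 8.3% of windows, as TTCCCAGAA at bases -97 to -89. Tap1 and Psmb9 are read away from each other from 1 stretch of DNA, so the Tap1 window holds most of the Psmb9 window on its other strand. A match to letters is not a measured binding site.

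On GRCm38, 6 of the members lie in the MHC on chromosome 17. H2-K1 (33996017 to 34000347, minus strand) lies at one side, and Psmb9 (34181987 to 34187764, minus), Tap1 (34187553 to 34197225, plus), Psmb8 (34197721 to 34201454, plus) and Tap2 (34203527 to 34216321, plus) stand side by side with no other coding gene between them. H2-D1 (35262730 to 35267499, plus) follows 1046408 bp after Tap2, with 69 coding genes between. B2m lies on chromosome 2 (122147686 to 122153083, plus), Irf7 on chromosome 7 (141262706 to 141266481, minus) and Nlrc5 on chromosome 8 (94434356 to 94527272, plus). Tap1 and Psmb9 share 212 bp of exon on opposite strands, and Irf7 shares 45 bp with Phrf1, which had 753 to 2271 counts per library. The sources used here do not say whether strand was used in counting, so reads in these stretches cannot be told apart. Class I heavy chain genes are near-identical in parts and differ between mice of an outbred strain, and reads were aligned to 1 reference genome, so the split of counts among H2 genes is uncertain.

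The libraries held 27850565 to 48097947 counts on genes. Saline male 3 stood apart from the other saline males, as in Psmb5, a constitutive proteasome subunit, which read 3.87 CPM (counts scaled to the total of the library) there and 33.7 and 33.96 CPM in saline males 1 and 2. The library labelled morphine male 6 had an Xist level of 380 CPM, against 550 to 979 CPM in the females and at most 2.65 CPM in the other males, and 8.38% to 29.6% of the other males' mean level of 4 Y-linked genes. The 12 brainstem markers summed to 594 to 781 CPM in saline and 615 to 731 CPM in morphine mice, against 8.89 to 14.2 and 7.93 to 12.5 CPM for 4 forebrain markers. The defining genes of T cells, NK cells and B cells were near 0: 9 T and NK cell markers summed to 1.35 to 2.08 CPM in saline and 1.51 to 2.04 CPM in morphine mice, and 4 B cell markers to at most 1.32 CPM. In whole tissue, fewer cells of a type and less RNA per cell cannot be told apart.

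The members spanned a wide range of levels. As CPM per kilobase of exon, a scale on which genes can be compared, B2m stood at 65.9 ± 11.8 (SD over the 12 mice), above 97.2% of the tested genes. The heavy chains followed with 9.92 ± 2.18 for H2-D1 and 5.38 ± 1.44 for H2-K1, and H2-D1 was the higher of them in 12 of 12 mice although their ranges overlapped. A wide gap separated these from the peptide transporter and the regulators, with 0.538 ± 0.185 for Tap2, 0.432 ± 0.166 for Irf7 and 0.274 ± 0.0572 for Tap1. Lowest were the immunoproteasome subunits, at 0.169 ± 0.0510 for Psmb8 and 0.160 ± 0.0588 for Psmb9, and Nlrc5 at 0.0847 ± 0.0293, which lay above only 1.83% of the tested genes. B2m did not overlap H2-D1, and H2-K1 did not overlap Tap2, while every other neighbour in this order overlapped the next. Exon length here joins the exons of all annotated transcripts of a gene, so genes with long rare transcripts read low on this scale.

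**Figure D1:**
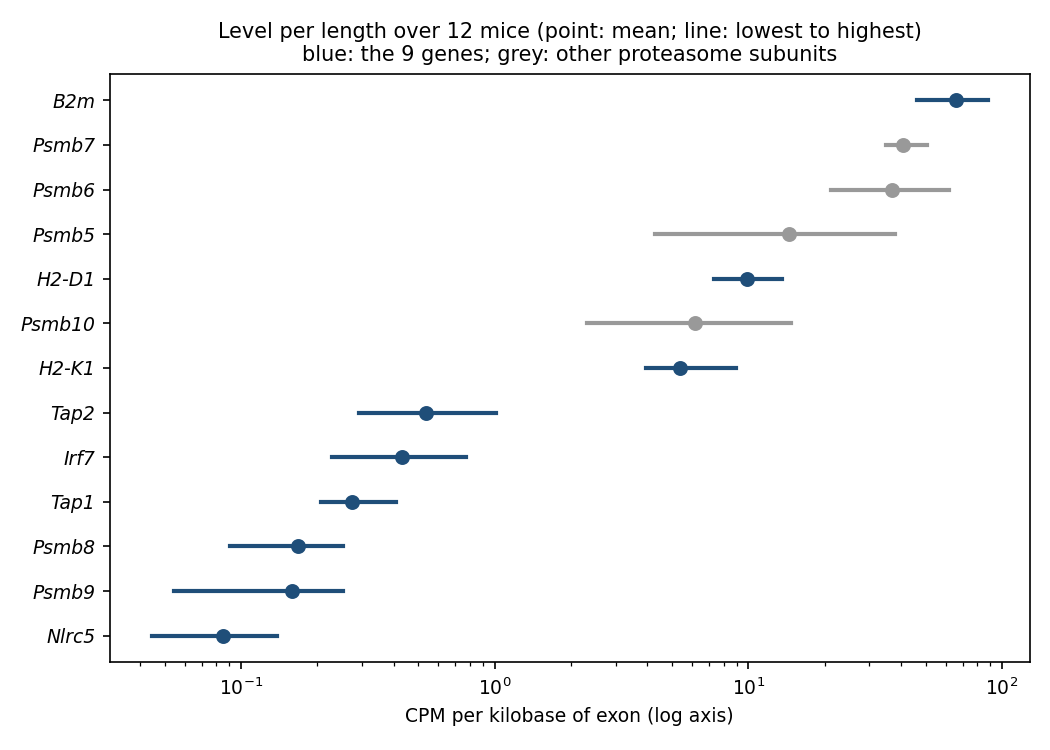
Level of each of the 9 genes (blue) and of 4 other proteasome subunits (grey) in CPM per kilobase of exon on a log axis, with the mean over 12 mice as a point and the lowest to the highest mouse as a line. B2m at a mean of 65.9 and Nlrc5 at 0.0847 mark the ends of the order, and Psmb8 and Psmb9 lie far below the constitutive subunits Psmb5, Psmb6 and Psmb7.

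Immunoproteasome subunits take the place of constitutive ones, Psmb8 that of Psmb5, Psmb9 that of Psmb6 and Psmb10 that of Psmb7. Per length, Psmb8 stood at 1.49% ± 0.834 (SD, n = 6) of Psmb5 in saline and 1.59% ± 0.201 in morphine mice. Psmb9 stood at 0.408% ± 0.207 of Psmb6 in saline and 0.506% ± 0.170 in morphine mice. Psmb10, the third immunoproteasome subunit, stood at 18.2% ± 15.7 of Psmb7 in saline and 12.8% ± 2.80 in morphine mice. The size of these ratios beside each other rests on the joined exon lengths. In plain CPM the morphine means were 0.622 for Psmb8 and 10.55 for Psmb5, and 8.69 for Psmb10 and 137.3 for Psmb7. None of the 3 ratios differed between treatments beyond the spread (exact two-sided permutation tests, p = 0.775, 0.383 and 0.448). The spread among saline mice was wide, since Psmb8 over Psmb5 read 0.397% and 0.669% in saline males 1 and 2 and 2.11% in saline male 3.

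In the comparison of all morphine with all saline mice, with sex as a covariate, a gene was called where its p before adjustment lay under 0.05 and its log2 fold change was over 0.26 in size. This rule called 221 of 18608 tested genes, 1.19%, and 0.607% as higher in morphine mice. After adjustment the quasi-likelihood test of edgeR left 0 genes under 0.05, against 246 before it. DESeq2 likewise left 0 genes after adjustment, against 271 before it. All 9 members passed the filter on low counts, and 1 of them, Nlrc5, was called. The median log2 fold change of the 9 members was 0.02, beside -0.02 for all tested genes.

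**Figure D2:**
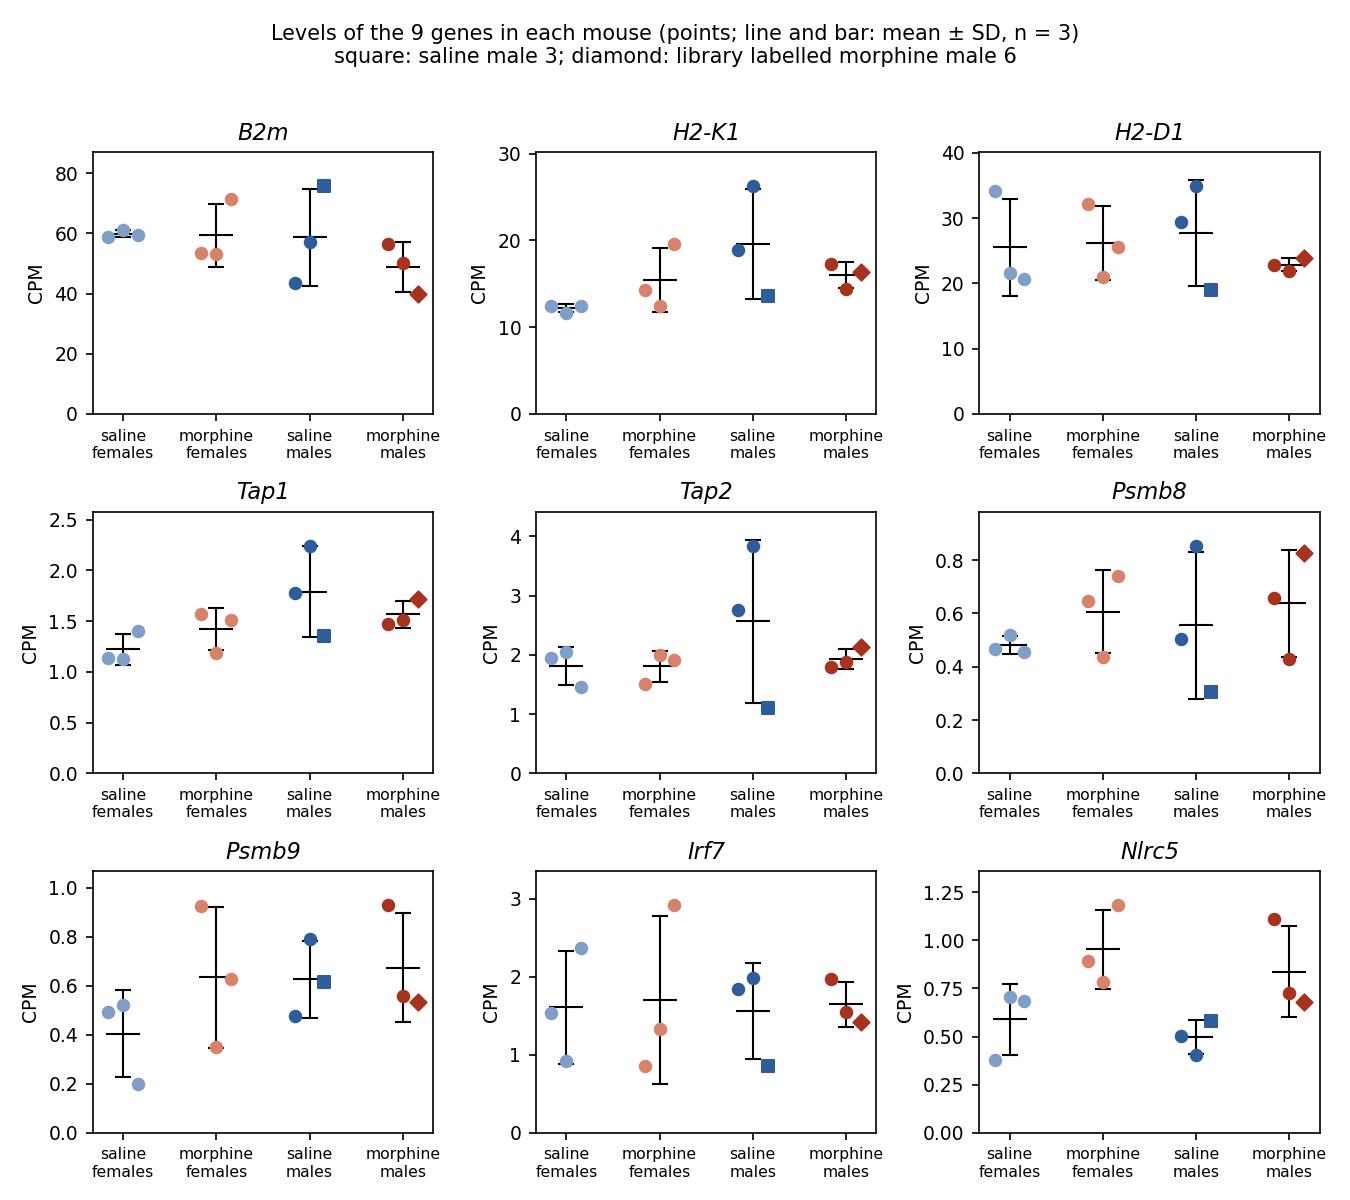
CPM of the 9 genes in each mouse by treatment and sex, with the mean and SD of 3 mice as line and bar, saline male 3 as a square and the library labelled morphine male 6 as a diamond. Nlrc5 is higher in each morphine group than in the saline group of the same sex without overlap, and the groups of the other genes overlap.

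Nlrc5, the class I transactivator, read 0.378, 0.703 and 0.685 CPM in saline females and 0.893, 0.783 and 1.18 CPM in morphine females. In males it read 0.504, 0.406 and 0.583 CPM with saline and 1.11, 0.724 and 0.680 CPM with morphine. Within each sex every morphine mouse was above every saline mouse, and across the sexes 5 of 6 morphine mice were above all saline mice. The exception was the library labelled morphine male 6, at 0.680 CPM, which lay below saline females 5 and 6. The groups did not overlap in 0.0376% of tested genes over all 12 mice, in 5.67% in females and in 8.86% in males, and 13 of 18608 genes, 0.0699%, were higher in morphine mice without overlap in both sexes, Nlrc5 among them.

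The fitted log2 fold change of Nlrc5 was 0.72 ± 0.23 (SE; 95% interval 0.23 to 1.21), a 1.65-fold difference, with an adjusted p of 1.00, and its p ranked 21 among the 18608 genes. The mean level was 0.895 ± 0.208 CPM in morphine and 0.543 ± 0.138 CPM in saline mice (SD, n = 6). An exact two-sided permutation test of the mean log2 CPM gave p = 0.00649, where 6 mice against 6 allow no value below 0.00216. Nlrc5 was also called under every alternative tried and without each mouse in turn, with log2 fold changes from 0.61 to 0.79. Without the library labelled morphine male 6 the value was 0.78, and without saline male 3 it was 0.75, and it was called in both. Of all tested genes, 0.688% to 2.42% were called over the sex-combined fits. Within the sexes the estimates were 0.68 ± 0.37 in females (95% interval -0.14 to 1.49) and 0.73 ± 0.32 in males (-0.02 to 1.48), and neither was called. The separation within a sex gave an exact permutation p of 0.1 in each, the smallest that 3 mice against 3 allow. In males Nlrc5 was called with total counts (0.86), with at least 10 counts in every library (0.74), with DESeq2's size factors (0.75) and when fitted with all 12 mice (0.76). Of all tested genes, 4.44%, 2.79%, 2.98% and 4.15% were called in these fits, in that order. With total counts 737 of the called genes were higher and 70 lower. The male change minus the female change was 0.07 ± 0.47 (95% interval -0.95 to 1.09).

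These values rest on 13 to 37 Nlrc5 counts per library. A lincRNA on the opposite strand, 9330175E14Rik, shares 78 bp of exon with Nlrc5 and had 0 to 11 counts, with at most 7 in saline mice and 11 in morphine mice. The summed markers of microglia and endothelium overlapped between treatments, with microglia markers at 269.8 to 376 CPM in saline and 285 to 332 CPM in morphine mice and endothelial markers at 382 to 429 and 401 to 418 CPM. Single genes could vary more than these sums. In saline males 1, 2 and 3 the microglial gene Tmem119 read 16.6, 20.8 and 4.82 CPM. The endothelial gene Cldn5 read 51.3, 60.1 and 14.1 CPM there. Both were picked for these levels, and the sums of their lists lay closer together. In the same mice the microglia markers summed to 307, 376 and 299 CPM and the endothelial markers to 404, 423 and 382 CPM. Neutrophil markers summed to 4.05 to 13.4 CPM in saline and 1.88 to 7.08 CPM in morphine mice, and their part in the result was not tested.

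**Figure D3:**
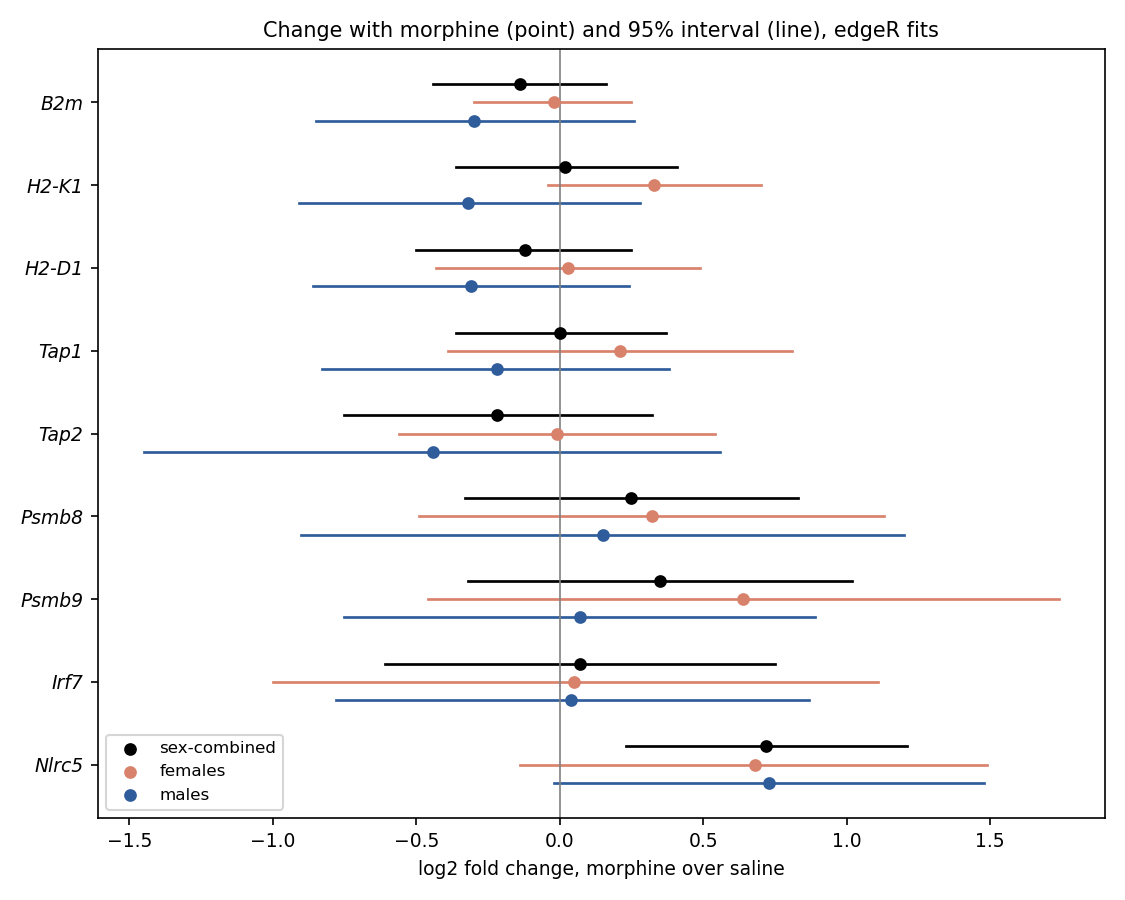
Log2 fold change of each gene with morphine (point) and its 95% interval (line) with the sexes combined (black), in females (orange) and in males (blue). The sex-combined interval of Nlrc5, 0.23 to 1.21, is the only interval drawn that leaves out 0.

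B2m, the class I light chain, read 58.9, 61.2 and 59.6 CPM in saline females and 53.4, 53.1 and 71.6 CPM in morphine females. In males it read 43.6, 57.1 and 75.6 CPM with saline and 56.4, 50.2 and 39.9 CPM with morphine. The groups overlapped, and saline males held both the highest mouse and the second lowest. The sex-combined log2 fold change was -0.14 ± 0.14, with a 95% interval of -0.44 to 0.16 (exact permutation p = 0.396).

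The heavy chain H2-K1 showed opposite signs in the sexes. It read 12.5, 11.7 and 12.5 CPM in saline females and 14.3, 12.4 and 19.6 CPM in morphine females, so 2 of 3 morphine females were above all saline females. In males it read 18.9, 26.2 and 13.6 CPM with saline and 17.3, 14.4 and 16.4 CPM with morphine, and these groups overlapped. The log2 fold change was 0.33 ± 0.17 in females (95% interval -0.04 to 0.70), where 1.81% of genes were called, and -0.32 ± 0.25 in males (-0.91 to 0.28), where 2.99% were called. The male minus the female change was -0.63 ± 0.32 (95% interval -1.33 to 0.06, adjusted p = 0.985), which did not pass, and 2.94% of genes were called in that comparison. The male value moved with the saline males left out. Without saline male 2, the highest, it was -0.05 in males and -0.37 in the interaction. Without saline male 3, the lowest, H2-K1 was called, at -0.49 in males and -0.86 in the interaction. Of all tested genes, 28.6% were then called in males and 24.1% in the interaction. The female value fell to 0.12 without morphine female 3, the highest of that group, and was called without morphine female 2, the lowest, at 0.47, and with no filter on low counts, at 0.33. In females 3.73% of all tested genes were called without morphine female 2, and 3.15% with no filter.

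H2-D1, the other classical heavy chain measured, read 34.2, 21.7 and 20.8 CPM in saline females and 32.1, 20.9 and 25.5 CPM in morphine females. In males it read 29.5, 34.9 and 18.9 CPM with saline and 22.8, 21.9 and 23.8 CPM with morphine. One saline and 1 morphine female stood well above the others of their group, and the morphine males lay close together inside the range of the saline males. The sex-combined log2 fold change was -0.12 ± 0.17 (exact permutation p = 0.610), with 0.03 ± 0.21 in females and -0.31 ± 0.23 in males. The male value was -0.11 without saline male 2, and -0.49 and called without saline male 3, where 28.6% of all tested genes were called. H2-K1 stood at 52.9% ± 12.3 of H2-D1 per length in saline and 57.2% ± 10.6 in morphine mice (SD, n = 6), from 32.1% in saline female 4 to 67.5% in morphine female 3, a difference within the spread (exact permutation test, p = 0.519). All 6 ratios tested between treatments, these and those of the heavy chains to B2m included, had an adjusted p of 0.952.

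Neither subunit of the peptide transporter passed the test. Tap1 read 1.13, 1.13 and 1.40 CPM in saline females, 1.57, 1.19 and 1.52 CPM in morphine females, 1.78, 2.24 and 1.35 CPM in saline males and 1.47, 1.51 and 1.72 CPM in morphine males. Tap2 read 1.95, 2.05 and 1.46 CPM in saline females and 1.51, 2.00 and 1.92 CPM in morphine females, and 2.76, 3.84 and 1.11 CPM in saline males and 1.80, 1.88 and 2.13 CPM in morphine males. Saline males 1 and 2 held the 2 highest values of both genes, and saline male 3 the lowest Tap2. Sex-combined log2 fold changes were 0.00 ± 0.17 for Tap1 (95% interval -0.36 to 0.37, exact permutation p = 0.892) and -0.22 ± 0.25 for Tap2 (-0.75 to 0.32, exact permutation p = 0.652). Tap2 in males was -0.44 ± 0.43 and stood at -0.03 without saline male 2. It was called at -0.77 without saline male 3, where 28.6% of all tested genes were called.

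The immunoproteasome subunits Psmb8 and Psmb9, which trim proteins into peptides suited to class I, were counted 10 to 40 and 7 to 37 times per library. Psmb8 ranged from 0.307 to 0.854 CPM with a median of 0.485 in saline mice and from 0.428 to 0.828 CPM with a median of 0.653 in morphine mice. Psmb9 ranged from 0.200 to 0.790 CPM with a median of 0.507 in saline mice and from 0.348 to 0.928 CPM with a median of 0.594 in morphine mice. Their groups overlapped widely. The sex-combined log2 fold changes were 0.25 ± 0.27 and 0.35 ± 0.31 (exact permutation p = 0.271 and 0.320), with 95% intervals up to 0.83 and 1.02. Of the constitutive subunits, the same fit gave -0.32 ± 0.49 for Psmb5, -0.09 ± 0.25 for Psmb6 and -0.05 ± 0.10 for Psmb7, and none was called in any of the 4 comparisons.

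Irf7 varied more between mice than with treatment. It read 1.54, 0.917 and 2.37 CPM in saline females and 0.862, 1.33 and 2.92 CPM in morphine females. In males it read 1.84, 1.99 and 0.859 CPM with saline and 1.98, 1.55 and 1.42 CPM with morphine. Each group but the morphine males thus held mice more than 2 times apart. The log2 fold change was 0.07 ± 0.32 with the sexes combined (95% interval -0.61 to 0.75, exact permutation p = 0.829), 0.05 ± 0.47 in females and 0.04 ± 0.35 in males.

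Among the 36 pairs of members, 25 had a positive Pearson's r of log2 CPM over the 12 mice, with a median of 0.28, and 1 pair passed adjustment over the 36. That pair was H2-K1 and Tap1, a heavy chain and the transporter subunit that supplies it, with r = 0.89 (permutation p = 0.00013, adjusted p = 0.00468) and Spearman's rho = 0.85 (permutation p = 0.00082, adjusted p = 0.0295). Without saline male 2 and morphine female 3, the mice farthest from the median of H2-K1, r was 0.85. It was 0.97 within saline and 0.55 within morphine mice. Over the 9 mice other than saline males it was 0.72, where that of H2-K1 was 0.78 with Psmb8 and 0.11 with Tap2, a split chosen after the data were seen. The next pairs, H2-K1 with Psmb8 and with Tap2, had r = 0.68 each and an adjusted permutation p of 0.199. B2m did not follow the heavy chains it pairs with, at r = -0.14 with H2-K1 and -0.22 with H2-D1, and Nlrc5 had r = -0.07 with H2-K1, -0.44 with H2-D1, 0.15 with B2m and -0.15 with Tap1, the smallest adjusted permutation p of these being 0.372.

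**Figure D4:**
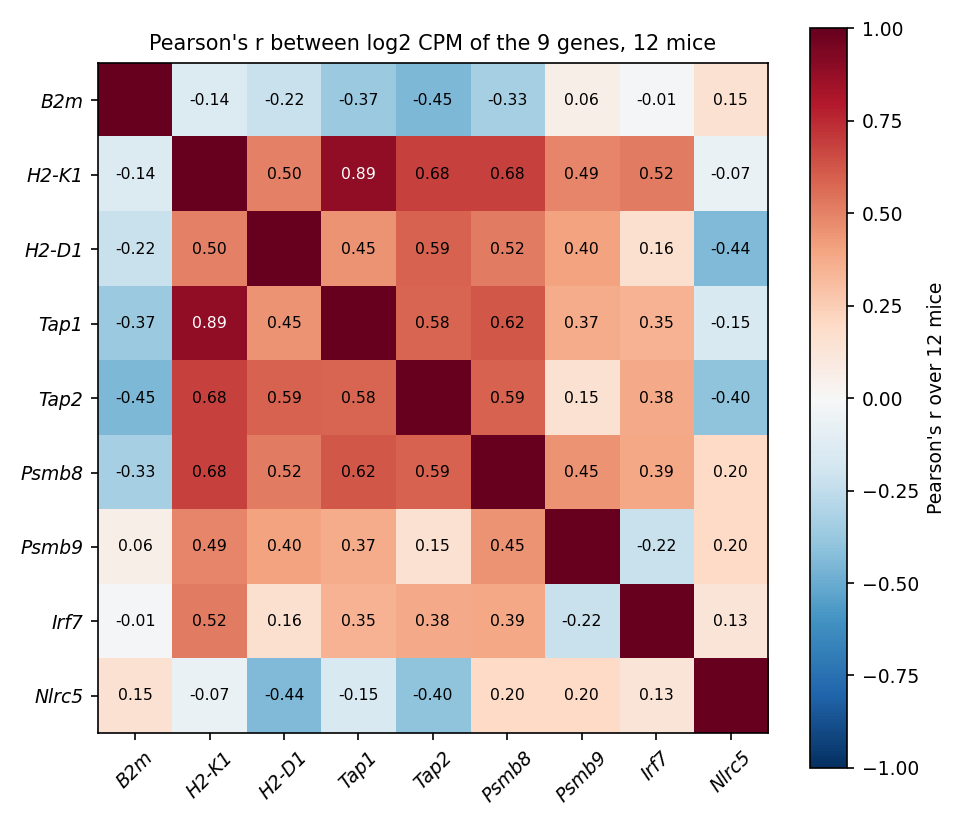
Pearson's r between the log2 CPM of each pair of the 9 genes over 12 mice, red for positive and blue for negative values. H2-K1, H2-D1, Tap1, Tap2 and Psmb8 have r from 0.45 to 0.89 with each other, while B2m has r below 0 with 6 of the other genes.

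The genes most like each member across the mice, by Pearson's r of log2 CPM over all tested genes, differed between them. They were Kcmf1 (0.96), Chtop (0.93) and Hs3st3a1 (0.92) for B2m, Asb2 (0.94), Cfap157 (0.94) and Lrrtm1 (0.91) for H2-K1, and Cyp4f15 (0.93), Pla2g5 (0.93) and Max (0.92) for H2-D1. Tap1 was most like Il3ra (0.92), Zfp469 (0.91) and Hook2 (0.89), and Tap2 most like Ubald1 (0.98), Cnn2 (0.97) and Mapre3 (0.97). Psmb8 was most like Zkscan6 (0.94), Foxred2 (0.91) and Pde9a (0.91), Psmb9 most like Socs1 (0.91), Gtse1 (0.85) and Gkn1 (0.83), and Nlrc5 most like C920006O11Rik (0.92), Cdca5 (0.91) and Thsd7b (0.90). The 3 genes nearest to Irf7 were all interferon-induced: Ifitm3 (0.90), Bst2 (0.86) and Isg15 (0.85).

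H2-K1, H2-D1, Tap1 and Tap2 varied with Psmb5, at r = 0.79, 0.77, 0.76 and 0.85, and B2m went the other way at r = -0.52. The same 4 genes had r = 0.65, 0.84, 0.60 and 0.85 with Mbp, a myelin gene, and B2m -0.45. Oligodendrocyte markers summed to 57140 and 58690 CPM in saline males 1 and 2 and to 33690 to 48810 CPM in the other mice, and their part in these correlations was not tested. In Psmb5 saline males 1 and 2 stood highest and saline male 3 lowest, and Psmb10, Tmem119 and Cldn5 showed the same order. The summed markers of microglia and endothelium did not. Saline female 6 had the lowest microglia sum, 269.8 CPM, and the highest endothelial sum, 429 CPM. Saline male 3 was also the lowest mouse in H2-D1 and Tap2, but not in H2-K1 and Tap1. Whether these libraries account for the shared pattern was not tested. Saline male 2 was the highest mouse in 5 of the 9 members and saline male 3 the lowest in 4, against 20.9% and 26.2% of all tested genes.

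The wider pathway was followed through lists of genes grouped by function. Of 144 listed genes 125 were tested with the sexes combined, and 0 were called higher and 3 lower, with 62 estimates above and 63 below 0, beside the 1.19% called of all tested genes. The 3 were H2-Q1, a class I heavy chain of the Q region (-0.86 ± 0.31), H2-Ab1, the β chain of a class II molecule (-0.68 ± 0.30), and Ifitm1, an interferon-induced membrane protein (-0.61 ± 0.24), each with an adjusted p of 1.00. H2-Q1 read 0.887 to 1.94 CPM in saline and 0.369 to 1.68 CPM in morphine mice. Of the morphine mice 4 lay below every saline mouse, while morphine male 5, at 1.68 CPM, and the library labelled morphine male 6, at 0.917 CPM, lay within the saline range. H2-Ab1 was not called without the library labelled morphine male 6.

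**Figure D5:**
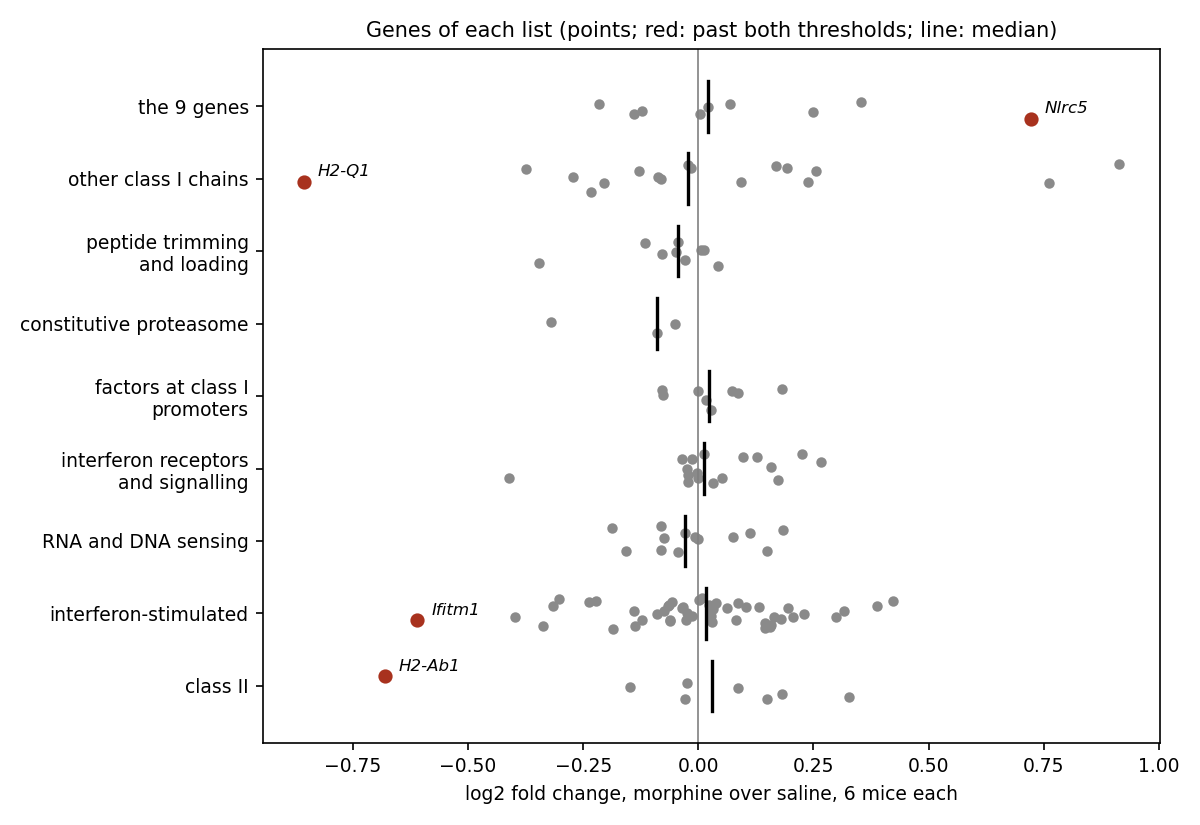
Log2 fold change with morphine, sexes combined, of each tested gene of the pathway lists (points), with the genes past both thresholds in red and the median of each list as a black line. All list medians lie between -0.09 and 0.03, and Nlrc5, H2-Q1, Ifitm1 and H2-Ab1 are the 4 genes in red.

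By group, 17 other class I chains had a median log2 fold change of -0.02 with 1 called lower, and 9 genes of peptide trimming and loading had a median of -0.04 with 0 called. The 8 factors of the complex that binds the X and Y boxes with NLRC5, among them Rfx5 (0.18 ± 0.10), had a median of 0.02 with 0 called. Interferon receptors and signalling genes (17 tested) had a median of 0.01 and RNA and DNA sensors (13 tested) -0.03, each with 0 called. The 50 interferon-stimulated genes tested had a median of 0.02 with 1 called lower, and the 8 class II genes tested, whose transactivator Ciita is the relative of Nlrc5, a median of 0.03 with 1 called lower. All 8 interferon genes listed, Ifnb1 and Ifng among them, were at 0 counts in every library, where 0 counts allow a level of up to 0.108 CPM in the shallowest library, 3 counts of its total.

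Within a sex, females shared H2-Q1 and Ifitm1 with the sex-combined calls and males shared none. In females 2 of 123 were called higher and 3 lower, beside 1.81% called of all tested genes, H2-Bl (2.43 ± 0.72) and H2-Q7 (1.12 ± 0.49) against H2-Q1 (-1.12 ± 0.36), Ifitm1 (-0.89 ± 0.29) and Ifit3 (-1.02 ± 0.42). Without saline female 6, H2-Q7 and Ifit3 were not called in females. H2-Bl, a class I heavy chain, read 0.581, 1.01 and 1.26 CPM in saline females and 8.10, 0.638 and 6.83 CPM in morphine females. It read 9.81, 11.6 and 4.36 CPM in saline males and 1.14, 5.40 and 13.4 CPM in morphine males, so mice with a low and mice with a high level occurred under each treatment. In males 2 of 124 were called, both higher, the antiviral genes Oas1b (0.80 ± 0.28) and Mx1 (0.95 ± 0.37), beside 2.99% of all tested genes. Mx1 was not called in males without saline male 3 or without the library labelled morphine male 6, and Oas1b was called in both.

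In the interaction, where a positive value is a larger morphine change in males than in females, 4 of 50 interferon-stimulated genes were called, all positive, beside 2.94% called of all tested genes. They were Mx1 (2.20 ± 0.65), Oas1b (0.99 ± 0.41), Phf11d (1.63 ± 0.73) and Ifit3 (1.23 ± 0.56), each with an adjusted p of 0.985. The median of the list was 0.27, beside -0.03 for all tested genes. Of the other lists, H2-Bl (-2.82 ± 1.21) and the immunoproteasome subunit Psmb10 (-1.62 ± 0.73) were called, both negative, and Psmb10 was not called without saline female 6. Irf7, which acts upstream of many of these genes, had an interaction of 0.00 ± 0.67.

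These interferon-stimulated values moved with the mouse left out, and saline female 6 plays no part in the fit of males alone. Saline female 6 was the highest of the 12 mice in 32 of the 50 interferon-stimulated genes, 64.0%, against 8.57% of all tested genes. Ifit3 read 7.31 CPM there and 1.51 to 4.10 CPM in the other 11 mice, and Phf11d read 1.03 CPM there and 0.154 to 0.778 CPM elsewhere. Without saline female 6, Mx1 alone of the 4 was called in the interaction and the list's median was 0.03, where 1.49% of all tested genes were called. The interaction had 6 list genes called higher, 0 lower and a median of 0.45 without the library labelled morphine male 6. It had 6 higher, 2 lower and a median of 0.43 without saline male 3. Of all tested genes, 3.4% and 24.1% were called in these fits, in that order. In females without saline female 6, 1 gene of the list was called higher and 1 lower, beside 1.27% of all tested genes. The lowest mouse was saline male 1 in 16 of the 50 genes and the library labelled morphine male 6 in 11, against 9.74% and 8.63% of all tested genes. In the members saline female 6 was the highest mouse in 0 of 9, with Irf7 second only to morphine female 3 at 2.37 CPM and Nlrc5 at 0.685 CPM inside the saline range.

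The members parted in how they ran with the interferon-stimulated genes over the mice. B2m had a median r of 0.48 with the 50 genes, Irf7 0.29 and Nlrc5 0.25, and the other 6 members had medians from -0.47 for H2-D1 to -0.30 for Psmb8 and Psmb9. Over all tested genes the median r of each member lay between -0.08 and 0.02. These 12 points share the libraries described above, so the values are a description. Within males, leaving out saline male 3 changed the calls among interferon-stimulated genes from 2 to 11 higher and 5 lower of 50, where 28.6% of all tested genes were called. Leaving out the library labelled morphine male 6 gave 4 higher and 0 lower, where 2.47% of all tested genes were called.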

How the data were processed

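Per the submitters' notes and the methods, Trimmomatic, STAR with the mm10 genome and featureCounts of the Subread package, over exons, turned the reads into counts. The deposited table holds the authors' raw counts of 55418 genes, whole numbers whose totals differ between libraries. Sample groups came from the labels of agent and sex. The dam is not in the labels and was not used here. Saline and morphine samples are separate mice with 1 library each.

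edgeR 4.0.16 (R 4.3.3) gave the main tests by its quasi-likelihood method, after TMM scaling, on genes kept by filterByExpr, with Benjamini-Hochberg adjustment over all tested genes. The sexes were combined with sex as a covariate, fitted alone, and compared through the interaction over the 12 mice. The thresholds for a call were those of the study. Levels are CPM with TMM factors over the 12 libraries, and log2 CPM used a prior count of 2. Permutation tests, two-sided throughout, used scipy 1.17.1, exact for group means and with 100000 resamples for correlations. Alternatives were DESeq2 1.42.0, its size factors, total counts, no filter, at least 10 counts in every library, exactTest, no sex covariate, the replicate number as a block, 1 fit of all 12 mice for a contrast within a sex, and leaving out each mouse. The fits were tested on simulated data.

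Positions and exon lengths came from GENCODE M21 (GRCm38), where all symbols were found. Promoter windows are RefSeq's on GRCm38.p6. The members and lists were chosen with earlier results of these data known, and the motif letters after the sequences were seen. Named were all members, at most the 8 called genes with the smallest p per comparison over the lists, Psmb5, Psmb6 and Psmb7, the 3 genes most like each member, and H2-Ab1 and other marker or list genes where a count turned on them. Tmem119 and Cldn5 were named for their levels in saline males.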

Additional observations from a re-analysis of the deposited data

Results flagged for a closer look

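Of 38 groups of 6 mice checked among the members and the called genes of the pathway lists, 1 held a mouse far from the others, where chance gives about 1 in 20. Phf11d read 1.03 CPM in saline female 6, and the gap to the next saline mouse took 0.654 of the group's range, above the critical value of Dixon's test. The gene was checked because it was called in the interaction, a call lost without saline female 6. The rate of 1 in 20 therefore does not apply to it.

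Of 125 tested genes of the pathway lists, 6 were called in the interaction, each with an adjusted p of 0.985, beside 2.94% of all tested genes. Without saline female 6, Mx1 and H2-Bl were still called, and Oas1b, Phf11d, Ifit3 and Psmb10 were not. The male minus the female change was 2.20 for Mx1, 0.99 for Oas1b, 1.63 for Phf11d and 1.23 for Ifit3. Mx1 read 0.504 ± 0.269 CPM in saline and 0.215 ± 0.0664 CPM in morphine females, and 0.221 ± 0.0626 CPM in saline and 0.427 ± 0.0849 CPM in morphine males (SD, n = 3). The difference was -2.82 for H2-Bl and -1.62 for Psmb10, whose level was 17.9 ± 12.1 CPM in saline and 8.09 ± 2.22 CPM in morphine males, against 6.70 ± 2.59 and 9.29 ± 1.25 CPM in saline and morphine females. No member was called in this comparison of the morphine change between the sexes.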

How the results depend on the processing

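With the sexes combined, 1 member, Nlrc5, was called under all 8 other settings and without each mouse in turn. In females 0 members were called, but 1 (H2-K1) with no filter on low counts, and 0 to 1 without a mouse. In males 0 were called, but 1 (Nlrc5) with DESeq2's size factors, with total counts, with at least 10 counts in every library and in the fit of all 12 mice, and 0 to 4 without a mouse, the 4 (Nlrc5 higher, H2-K1, H2-D1 and Tap2 lower) without saline male 3. In the interaction 0 were called, but 1 (H2-K1) with no filter, and 0 to 2 without a mouse (2 without saline male 3, 1 without morphine female 2). Without saline male 3, 28.6% of all tested genes were called in males and 24.1% in the interaction. Fold changes close to 0 changed sign. H2-K1 with the sexes combined was -0.02 with exactTest and with no sex covariate. Tap1 was -0.02 with DESeq2, with exactTest and with no sex covariate, -0.00 with DESeq2's size factors and -0.01 with no filter. The Irf7 interaction was 0.11 with total counts and 0.02 with at least 10 counts. The cause was not tested.

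Leaving out 1 mouse turned signs in these ranges: with the sexes combined, H2-K1 -0.12 to 0.18, Tap1 -0.07 to 0.12 and Irf7 -0.22 to 0.22. In females they were B2m -0.18 to 0.05, H2-D1 -0.14 to 0.29, Tap2 -0.14 to 0.11 and Irf7 -0.56 to 0.46. In males they were Irf7 -0.21 to 0.26, Psmb8 -0.09 to 0.63 and Psmb9 -0.23 to 0.28. In the interaction they were Irf7 -0.42 to 0.62, Nlrc5 -0.19 to 0.29, Psmb8 -0.45 to 0.32 and Tap2 -0.80 to 0.00. Of the 564 refitted member values, 494 kept direction and side of the thresholds, 56 changed sign and 14 passed where they had not. Total counts in place of TMM moved the males' median over all tested genes from -0.06 to 0.06, and the genes called from 349 higher and 194 lower to 737 and 70. With no filter 754 genes were called with the sexes combined, against 221.

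Replicate numbers are shared between saline and morphine mice of opposite sex, and the labels do not say that a number marks a litter. Same-numbered mice had r from -0.36 to 0.18 in their deviations from the group means, and 0 of 6 saline mice was most like its number. With the replicate block 1 member was called with the sexes combined, Nlrc5 at 0.72, and 204 genes in all. Within a sex no block could be fitted, as the groups share no number. Counts of 7 to 40 per library limit Psmb8, Psmb9 and Nlrc5.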
